A study of Homo sapiens with 18 samples.

Results

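The 55 genes described here encode assembly factors of the large ribosomal subunit. They were taken as a fixed list, matched by symbol to RefSeq genes of the hg38 build, and make up 55 of the 19974 protein-coding genes on chromosomes 1 to 22 and X. Chromatin immunoprecipitation and sequencing of MAX, the DNA-binding partner of MYC, was done in U2OS cells, a human osteosarcoma line. In every line the endogenous MYC gene was knocked out, and a Tet-On transgene switched on by doxycycline (Dox) supplied the mutant named 3A, the mutant named 7A or wild-type MYC (WT). Each form was given Dox at 1 µg/ml or PBS over 24 h, and fixed NIH3T3 mouse cells were added at 10% as spike-in chromatin. The antibody is MAX by its own label, whereas the protocol text describes precipitation with anti-FLAG, so the target rests on that label. The labels give 18 libraries, with 2 MAX immunoprecipitations and 1 input for each MYC form with and without Dox, but not the residues changed in 3A and 7A, nor whether a line is 1 clone. The values analysed here come from 1 peak list per MYC form, with 27294 peaks for 3A, 25159 for 7A and 34622 for WT. No list separates Dox from PBS or replicate from replicate, so every value below describes 1 list, no p-value could be given, and MYC forms are compared without any replicate check. Library depths were not given in the sources used here.

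Ribosomes are built in the nucleolus, where a long precursor RNA is cut, modified and folded around ribosomal proteins. Assembly factors bind the growing large subunit for part of this path and leave before it works in translation: some join the first nucleolar particles, others remodel them with the energy of ATP or GTP, and a last group leads them through the nuclear pore and leaves in the cytoplasm. Genes of ribosome production are classic targets of MYC, which binds DNA with MAX at the E-box, whose canonical form is CACGTG.

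A gene was counted as having a MAX peak where a summit lay inside it or within 2500 bp of either outer end. By this rule 54 of the 55 genes had a peak in the 3A list, 54 in the 7A list and 54 in the WT list. That is 98.2% in each (95% Clopper-Pearson interval 90.3 to 99.95, which covers counting error only), against 67.7% of all protein-coding genes in 3A, 66.7% in 7A and 70.8% in WT. The same 54 genes had a peak in all 3 lists, as had 65.7% of all protein-coding genes. The lists did not differ in which of these genes had a peak, and what is left to compare is the position and the rank of the peaks.

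The gene without a peak was DDX24, an RNA helicase gene (hg38, chromosome 14, 94048287 to 94081202). Its nearest summit was 394 kb away in each of the 3A, 7A and WT lists. DDX24 lay in an interval of 1.68 Mb, from 92794499 to 94474749, in which none of the lists held a peak and which contained 23 complete protein-coding genes. At DDX24 a lack of MAX cannot be told apart from a stretch in which no peaks were listed. The lists held a few peaks on alternate contigs of hg38 (3 in 3A, 2 in 7A and 4 in WT).

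Most of the strongest peaks lay close to a gene start. RefSeq starts were at hand for 46 of the genes with a peak, and the summit of the strongest peak was within 100 bp of a start for 34 of them in 3A, 31 in 7A and 33 in WT. Within 1000 bp were 43 in 3A, 43 in 7A and 43 in WT. The median distance was 31 bp in 3A, 42 bp in 7A and 41 bp in WT. These distances are not given for all protein-coding genes, so the position is not read as particular to this set. Those farther than 1000 bp from a start were SENP3 and NOP53 in every list, GNL3L in 3A and NOC2L in 7A and WT. By outer gene ends alone, PES1, WDR74, WDR18 and PAK1IP1 would seem to have internal peaks, yet their strongest summits lay 11, 9, 42 and 2 bp from a listed start in 3A, 3, 29, 60 and 7 bp in 7A, and 6, 19, 53 and 11 bp in WT.

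**Figure D1:**
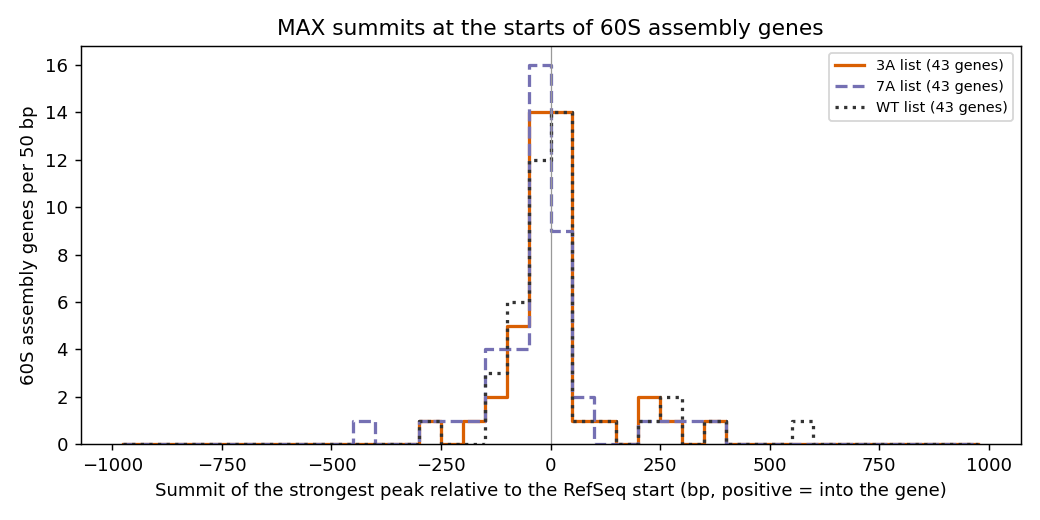
Position of the strongest MAX summit relative to the RefSeq start (x axis, bp, positive into the gene) against the number of large-subunit assembly genes per 50 bp (y axis), for the 3A (solid), 7A (dashed) and WT (dotted) lists. In each list 43 genes are shown, and most summits fall in the bins on either side of the start.

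Some of these starts, though not most, carried the canonical E-box. Promoter windows of 250 bases before to 50 bases after a start were available for 47 of the 55 genes, and 14 of them held CACGTG (29.8%), a palindrome that reads alike on both strands. Of all 15813 protein-coding genes with a window 10.9% held it, of those with a WT peak 12.4%, and of those whose WT peak ranked in the top 10% of the list 23.2%. The variant CACGCG, searched on both strands as were all motifs, was found at 15 of the 47 genes (31.9%). It was found at 18.1% of all, 21.9% of those with a WT peak and 31.8% of those in the WT top 10%, so that its share here was that of other highly ranked genes. CATGTG was found at 3 of the 47 (6.38%) and at 11.5% of all. CACGTG or CACGCG stood at 27 of the 47 genes (57.4%) and at 26.2% of all. Windows could hold more than one of these motifs, also overlapping.

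Summits often fell on the E-box or close to it. Measured to the third base of the nearest CACGTG, the summit of the strongest peak was within 50 bp at 10 of the 14 genes in 3A, 11 in 7A and 9 in WT. The median was 14.5 bp in 3A, 16 bp in 7A and 18.5 bp in WT. Most summits lay near starts and the motif was sought only near starts, so short distances are in part built in. These distances are not given for other genes with CACGTG. Closest in WT were GNL2 and GNL3, nucleolar GTPase genes (1 bp each), EBNA1BP2 (2 bp), MRTO4 (3 bp) and NOP2 (5 bp). At GNL2 the distance was 12 bp in 3A and 13 bp in 7A, at GNL3 2 bp in 3A and 11 bp in 7A, and at EBNA1BP2 2 bp in 3A and 4 bp in 7A. At MRTO4 it was 1 bp in 3A and 9 bp in 7A, and at NOP2 14 bp in 3A and 5 bp in 7A. The windows of these genes are shown because peak and motif lie within 5 bp of each other there in WT. They are RefSeq sequences (GRCh38.p14), written 5′ to 3′ on the gene's strand, with CACGTG and CACGCG or CGCGTG in capitals.
GNL2 (chr1:37595888-37596187, minus strand): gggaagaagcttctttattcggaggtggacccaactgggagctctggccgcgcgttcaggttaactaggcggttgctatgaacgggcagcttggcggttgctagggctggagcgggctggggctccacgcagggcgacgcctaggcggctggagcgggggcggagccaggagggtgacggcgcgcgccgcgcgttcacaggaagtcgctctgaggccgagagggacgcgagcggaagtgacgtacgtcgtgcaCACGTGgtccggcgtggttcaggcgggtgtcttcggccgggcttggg
GNL3 (chr3:52685782-52686081, plus strand): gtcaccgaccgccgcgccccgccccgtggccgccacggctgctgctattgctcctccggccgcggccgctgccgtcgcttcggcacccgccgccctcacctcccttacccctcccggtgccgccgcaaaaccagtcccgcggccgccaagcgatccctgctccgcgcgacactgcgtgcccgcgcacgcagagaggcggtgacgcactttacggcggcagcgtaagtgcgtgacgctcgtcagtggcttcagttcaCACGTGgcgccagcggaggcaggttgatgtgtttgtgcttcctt
EBNA1BP2 (chr1:43172241-43172540, minus strand): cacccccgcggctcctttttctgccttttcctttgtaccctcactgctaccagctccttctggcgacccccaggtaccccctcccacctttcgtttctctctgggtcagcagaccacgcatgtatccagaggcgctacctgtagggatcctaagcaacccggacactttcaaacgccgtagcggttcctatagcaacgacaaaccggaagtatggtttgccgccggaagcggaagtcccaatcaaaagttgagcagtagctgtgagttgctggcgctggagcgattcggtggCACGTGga
MRTO4 (chr1:19251555-19251854, plus strand): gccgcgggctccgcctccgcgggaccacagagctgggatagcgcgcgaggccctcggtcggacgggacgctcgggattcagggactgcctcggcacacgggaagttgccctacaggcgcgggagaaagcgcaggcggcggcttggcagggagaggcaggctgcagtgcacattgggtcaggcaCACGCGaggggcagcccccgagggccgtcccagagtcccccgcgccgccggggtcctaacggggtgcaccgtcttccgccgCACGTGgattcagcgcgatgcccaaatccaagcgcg
NOP2 (chr12:6568242-6568541, minus strand): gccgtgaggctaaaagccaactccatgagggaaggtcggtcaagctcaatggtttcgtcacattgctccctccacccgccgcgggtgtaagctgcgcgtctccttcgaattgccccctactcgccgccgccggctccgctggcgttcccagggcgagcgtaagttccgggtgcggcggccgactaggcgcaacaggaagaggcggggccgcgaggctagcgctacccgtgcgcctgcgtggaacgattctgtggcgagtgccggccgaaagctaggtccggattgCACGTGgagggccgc
In each of these 5 windows the single CACGTG begins between 3 and 42 bases downstream of the start. MRTO4 holds CACGCG farther upstream as well.

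**Figure D2:**
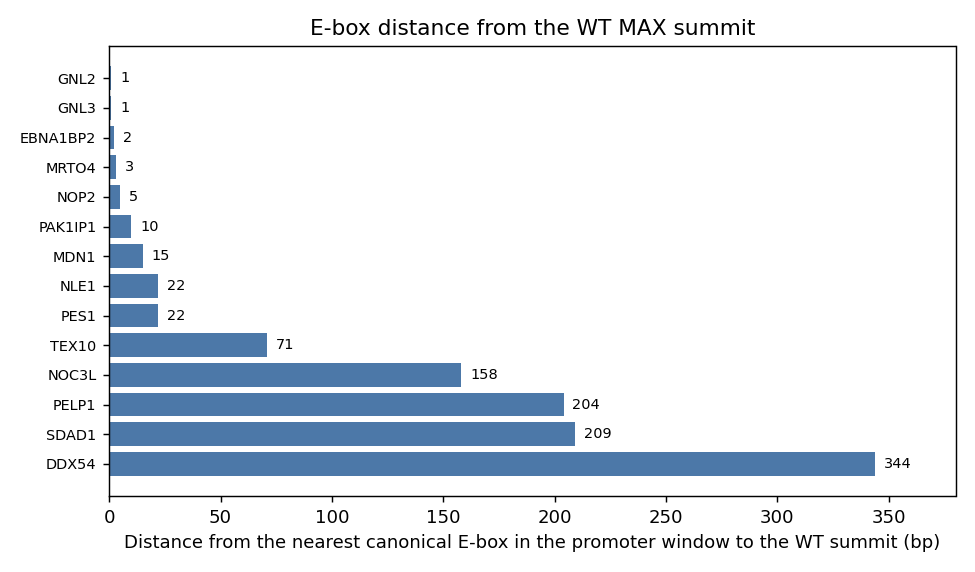
Distance (x axis, bp) from the WT summit to the nearest canonical E-box within the promoter window, for the 14 large-subunit assembly genes that hold one (y axis). The distance is between 1 and 22 bp at 9 genes and reaches 344 bp at DDX54.

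Genes with the motif had the higher median ranks. The rank of a peak is given as its percentile within its own list, that is, the share of the list's other peaks that it outranks by fold enrichment, with ties averaged. Fold enrichment is the peak caller's linear ratio of signal over background, as deposited by the authors, and is comparable only within a list. The 14 genes with CACGTG had median percentiles of 94.7 in 3A, 92.5 in 7A and 96.9 in WT. The 32 with a window without it and with a peak had 88.4 in 3A, 80.9 in 7A and 88.5 in WT. The lowest percentile among the 14 was 86.3 in 3A, 61.0 in 7A and 89.98 in WT, and among the 32 it was 36.5 in 3A, 18.7 in 7A and 38.8 in WT. This is a description over genes, which are not replicates, and the groups overlap.

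Among all genes, those of large-subunit assembly were near the top of each list. The 54 genes had a median percentile of 91.5 in 3A (quartiles 85.7 and 96.7), 90.8 in 7A (78.3 and 94.5) and 92.7 in WT (85.9 and 98.4). For all protein-coding genes with a peak the medians were 71.0 in 3A, 68.5 in 7A and 74.7 in WT. In the top 10% of the list were 32 of 54 genes in 3A (20.0% of all genes with a peak), 29 in 7A (18.1%) and 34 in WT (23.1%). In the lower 50% of the list were 2 genes in 3A (27.7% of all), 5 in 7A (29.5%) and 1 in WT (22.7%). Median fold enrichments of the 54 genes were 28.1 in 3A, 27.5 in 7A and 34.9 in WT, and median peak widths 894 bp in 3A, 901.5 bp in 7A and 1093 bp in WT.

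Related gene sets are given beside them, as values with no test of a difference. Of 59 assembly factor genes of the small subunit, 54 had a peak in 3A, 54 in 7A and 54 in WT, with median percentiles of 91.0 in 3A, 87.6 in 7A and 94.3 in WT. Of 47 ribosomal protein genes of the large subunit, 47 had a peak in 3A, 46 in 7A and 47 in WT, with median percentiles of 95.03 in 3A, 84.3 in 7A and 95.1 in WT. In the top 10% were 32 of 54 large-subunit assembly genes in 3A, 29 of 54 in 7A and 34 of 54 in WT. Of all genes with a peak it was 20.0% in 3A, 18.1% in 7A and 23.1% in WT. Of the small-subunit assembly genes it was 35 of 54 in 3A, 24 of 54 in 7A and 37 of 54 in WT, and of the ribosomal protein genes 31 of 47 in 3A, 11 of 46 in 7A and 39 of 47 in WT.

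**Figure D3:**
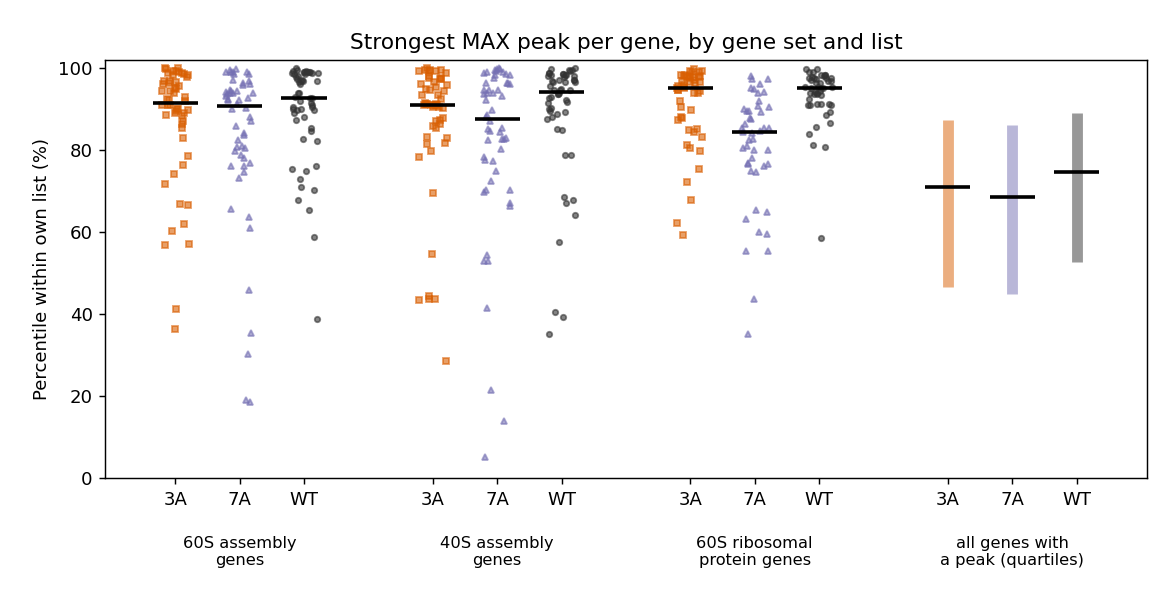
Percentile of each gene's strongest MAX peak within its own list (y axis, %) for 4 gene sets, each in the 3A, 7A and WT lists (x axis). Points are genes, black lines medians, and the bars at right span the quartiles of all protein-coding genes with a peak, whose medians are 71.0, 68.5 and 74.7.

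The highest WT peak of the set was that of RRP1B, a nucleolar factor of early large-subunit precursors (hg38, chromosome 21, 43659143 to 43660279). Its fold enrichment was 161 in 3A, 108 in 7A and 208 in WT, at percentiles of 99.96 in 3A, 99.8 in 7A and 99.99 in WT, so that it was at the very top of all lists. RRP1, its relative, had 17.3 in 3A, 34.3 in 7A and 74.00 in WT, with percentiles of 76.5 in 3A, 94.6 in 7A and 98.9 in WT, so that it was in the top 10% in 7A and WT and not in 3A. Among the other early nucleolar factors, URB1 (hg38, chromosome 21, 32392103 to 32393695) had fold enrichments of 40.7 in 3A, 32.4 in 7A and 75.5 in WT and URB2 of 36.5 in 3A, 42.96 in 7A and 68.7 in WT. Their percentiles were 96.8 in 3A, 93.7 in 7A and 99.0 in WT for URB1, and 95.7, 96.9 and 98.7 for URB2. NOC3L, whose yeast relative Noc3 acts in early precursors, had 71.6 in 3A, 81.97 in 7A and 70.98 in WT and stayed above the percentile of 98 in all lists. NOP16 was alike, with 61.5 in 3A, 67.4 in 7A and 65.5 in WT. Of the 18 genes of this group, 13 were in the top 10% in 3A, 11 in 7A and 12 in WT. The shares of all genes with a peak were 20.0% in 3A, 18.1% in 7A and 23.1% in WT.

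Other early factors differed in the list in which they ranked lowest. PAK1IP1 (percentiles 98.8 in 3A, 96.4 in 7A and 89.98 in WT) and RRP15 (97.8 in 3A, 98.5 in 7A and 89.02 in WT) had their lowest percentile in WT. EBNA1BP2 (92.9 in 3A, 91.3 in 7A and 98.5 in WT), NIFK (90.1 in 3A, 92.5 in 7A and 96.9 in WT) and RSL1D1 (91.97 in 3A, 85.9 in 7A and 94.01 in WT) had theirs in one of the mutant lists. MAK16 had 96.1 in 3A, 93.1 in 7A and 92.8 in WT, and GRWD1, a chaperone of a ribosomal protein, had 85.4 in 3A, 82.4 in 7A and 85.4 in WT. SDAD1 (95.01 in 3A, 78.2 in 7A and 90.6 in WT) was lowest in 7A. CEBPZ, the human relative of yeast Noc1, was among the lowest of the set in WT, with percentiles of 74.1 in 3A, 80.7 in 7A and 67.95 in WT.

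The lowest of the early factors was NSA2 in the mutant lists. NSA2 (hg38, chromosome 5, 74766525 to 74767782) had a fold enrichment of 9.12 in 3A, 6.98 in 7A and 15.9 in WT, at percentiles of 36.5 in 3A, 19.2 in 7A and 70.2 in WT. The same peak had a −log10 q of 79.7 in 3A, 72.03 in 7A and 207 in WT and a width in bp of 938 in 3A, 785 in 7A and 1258 in WT. NOP53 (hg38, chromosome 19, 47742565 to 47743998), whose yeast relative brings the RNA exosome to the precursor, had 12.2 in 3A, 17.7 in 7A and 35.5 in WT, at percentiles of 56.9 in 3A, 76.9 in 7A and 92.95 in WT. Its strongest summit lay 1827 bp upstream of the RefSeq start in 3A, 1840 bp in 7A and 1833 bp in WT, where it was 579 bp from an outer end of EHD2. A peak at the start itself, 294 bp from it and with a fold enrichment of 25.5, was in the WT list and in neither mutant list.

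The PeBoW complex, made of BOP1, PES1 and WDR12, is needed to process the precursor of the large-subunit RNAs. BOP1 (hg38, chromosome 8, 144290492 to 144292611) had fold enrichments of 39.8 in 3A, 67.4 in 7A and 69.5 in WT. Its percentiles were 96.5 in 3A, 99.1 in 7A and 98.7 in WT. In 3A its strongest peak was another one, inside the gene and 4297 bp from an outer end, and the peak at the WT site had a fold enrichment of 38.3 there. The summit of that internal 3A peak lay 111 bp from an outer end of another gene, SCX. PES1 had 50.4 in 3A, 29.5 in 7A and 53.1 in WT, and WDR12 had 15.7 in 3A, 24.5 in 7A and 29.6 in WT. Their percentiles were 98.3 in 3A, 92.2 in 7A and 97.3 in WT for PES1, and 71.7 in 3A, 88.1 in 7A and 89.7 in WT for WDR12, which was lowest in 3A.

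Among the factors with a Brix domain and those that load the 5S ribonucleoprotein, 4 of 5 were in the top 10% in 3A, 4 in 7A and 3 in WT. Of all genes with a peak, 20.0% were there in 3A, 18.1% in 7A and 23.1% in WT. RPF2 (hg38, chromosome 6, 110981811 to 110982439) and RRS1, which act together on the 5S particle, had fold enrichments of 32.8 in 3A, 39.2 in 7A and 90.4 in WT for RPF2 and 68.3 in 3A, 64.5 in 7A and 84.8 in WT for RRS1. Their percentiles were 94.3 in 3A, 96.1 in 7A and 99.5 in WT for RPF2, and 99.3, 98.9 and 99.3 for RRS1. PPAN (hg38, chromosome 19, 10106114 to 10106937) had 53.7 in 3A, 44.4 in 7A and 77.7 in WT. Its percentiles were 98.6 in 3A, 97.2 in 7A and 99.1 in WT. BRIX1 had 50.8 in 3A, 29.4 in 7A and 23.9 in WT, with percentiles of 98.4 in 3A, 92.2 in 7A and 84.5 in WT, lowest in WT. RPF1 stood apart in the 7A list, with a fold enrichment of 14.3 in 3A, 6.9 in 7A and 18.01 in WT at percentiles of 66.7 in 3A, 18.7 in 7A and 75.3 in WT. Its −log10 q was 67.2 in 3A, 61.6 in 7A and 189 in WT. Ranked by −log10 q within each list, its percentiles were 51.2 in 3A, 34.3 in 7A and 72.9 in WT.

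Of the 4 nucleolar GTPase genes, 3 were in the top 10% in 3A, 3 in 7A and 3 in WT. The shares of all genes with a peak were 20.0% in 3A, 18.1% in 7A and 23.1% in WT. GNL3, which encodes nucleostemin, had 57.4 in 3A, 57.1 in 7A and 74.3 in WT (hg38, chromosome 3, 52685409 to 52686640). Its percentile was above 98 in all 3 lists. GNL2 had 33.3 in 3A, 26.8 in 7A and 50.7 in WT, at percentiles of 94.5 in 3A, 90.3 in 7A and 96.99 in WT. GTPBP4, the relative of yeast Nog1, had 26.03 in 3A, 17.5 in 7A and 45.6 in WT. Its percentiles were 90.02 in 3A, 76.2 in 7A and 96.1 in WT. GNL3L had 25.6 in 3A, 32.8 in 7A and 22.5 in WT and 2 peaks in each list, of which the one inside the gene was the stronger in 3A and the one at its start in 7A and WT. The percentiles of GNL3L were 89.6 in 3A, 93.9 in 7A and 82.8 in WT.

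Remodelling of the particle uses the AAA ATPases MDN1 and NVL. MDN1, or midasin (hg38, chromosome 6, 89818963 to 89820206), had fold enrichments of 40.96 in 3A, 33.8 in 7A and 85.2 in WT, and its partner NLE1 had 27.4 in 3A, 30.3 in 7A and 34.8 in WT. Percentiles were 96.9 in 3A, 94.4 in 7A and 99.4 in WT for MDN1, and 91.1, 92.7 and 92.6 for NLE1. NVL had 20.5 in 3A, 16.9 in 7A and 12.5 in WT, at percentiles of 83.1 in 3A, 74.6 in 7A and 58.8 in WT, lowest in WT. WDR74, a partner of NVL, had 32.1 in 3A, 32.6 in 7A and 33.3 in WT, and 3 peaks in 3A, 3 in 7A and 4 in WT.

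Of the 7 DEAD-box helicase genes, which encode enzymes that unwind or rearrange RNA, 6 had peaks. DDX18 had 112 in 3A, 32.7 in 7A and 49.8 in WT, at percentiles of 99.9 in 3A, 93.9 in 7A and 96.8 in WT. DDX54 had 27.2 in 3A, 33.6 in 7A and 56.05 in WT, DDX55 24.4 in 3A, 19.7 in 7A and 60.7 in WT, DDX56 39.1 in 3A, 33.4 in 7A and 38.02 in WT and DDX51 29.7 in 3A, 23.6 in 7A and 30.2 in WT. Percentiles were 90.9 in 3A, 94.3 in 7A and 97.7 in WT for DDX54, and 88.3, 81.0 and 98.2 for DDX55. In the same order they were 96.4, 94.2 and 93.97 for DDX56, and 92.5, 87.1 and 90.1 for DDX51. DDX27 had the lowest WT rank of the 6, at percentiles of 60.4 in 3A, 73.2 in 7A and 72.8 in WT. The group medians were 91.7 in 3A, 90.5 in 7A and 95.4 in WT.

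The enzymes that methylate the large-subunit RNA, NOP2 and FTSJ3, and NIP7, a partner of FTSJ3, had median percentiles of 78.4 in 3A, 63.7 in 7A and 82.2 in WT, under those of the set as a whole. NOP2 had percentiles of 89.03 in 3A, 83.7 in 7A and 96.7 in WT, NIP7 of 78.4 in 3A, 63.7 in 7A and 82.2 in WT and FTSJ3 of 57.2 in 3A, 35.3 in 7A and 74.9 in WT. All 3 were lower in 7A than in WT by at least 10 points, as were 37.8% of all genes with both peaks. Ranked by −log10 q, NOP2 differed by -4.49 points, NIP7 by -14.02 and FTSJ3 by -25.2. FTSJ3 (hg38, chromosome 17, 63826710 to 63827852) had fold enrichments of 12.3 in 3A, 8.92 in 7A and 17.8 in WT, and its summit lay 280 bp into the gene in 3A, 278 bp in 7A and 556 bp in WT.

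PELP1, TEX10 and WDR18 form a complex that joins late nucleolar and nuclear particles with the SUMO protease SENP3. LAS1L cuts the second internal spacer of the precursor RNA, and NOL9 phosphorylates the cut end. SENP3 had 100.2 in 3A, 65.4 in 7A and 75.5 in WT for a summit beyond its outer end (hg38, chromosome 17, 7572252 to 7574312). That summit lay 286 bp from an outer end of EIF4A1 in WT, so its peak cannot be credited to SENP3 alone. This peak was in the top 10% of every list. A weaker peak lay at the start of SENP3 (107 bp from it in WT). Its percentiles were 93.5 in 3A, 68.7 in 7A and 86.3 in WT, in the top 10% in 3A only. PELP1 had percentiles of 86.3 in 3A, 61.00 in 7A and 91.1 in WT, TEX10 of 94.9 in 3A, 84.2 in 7A and 90.4 in WT and WDR18 of 92.2 in 3A, 90.1 in 7A and 91.5 in WT. LAS1L had 89.9 in 3A, 65.6 in 7A and 76.05 in WT, highest in 3A and lowest in 7A. NOL9 was low in all, with fold enrichments of 9.77 in 3A, 10.4 in 7A and 14.3 in WT at percentiles of 41.4 in 3A, 46.00 in 7A and 65.4 in WT. In 7A, PELP1, LAS1L and NOL9 were at least 10 points lower than in WT, as were 37.8% of all genes with both peaks. With lists of equal length the difference was -26.8 points for PELP1, -1.42 for LAS1L and -6.44 for NOL9, and ranked by −log10 q it was -21.3, -20.1 and -36.2.

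The 5 late factors had median percentiles of 87.2 in 3A, 78.8 in 7A and 87.3 in WT. MRTO4 and RSL24D1 hold the places of ribosomal proteins that join later, NMD3 leads the particle through the nuclear pore, and LSG1 and ZNF622 act in the cytoplasm. MRTO4 had 24.9 in 3A, 38.2 in 7A and 49.2 in WT, and NMD3 had 23.4 in 3A, 19.02 in 7A and 29.7 in WT. Percentiles were 88.9 in 3A, 95.8 in 7A and 96.8 in WT for MRTO4, and 87.2, 79.7 and 89.7 for NMD3. RSL24D1 (hg38, chromosome 15, 55196466 to 55197386) had 14.4 in 3A, 8.3 in 7A and 26.6 in WT, at percentiles of 66.8 in 3A, 30.4 in 7A and 87.3 in WT, a difference between 7A and WT about as large as that of RPF1. LSG1 had percentiles of 88.6 in 3A, 78.8 in 7A and 71.01 in WT, lowest in WT. ZNF622 (hg38, chromosome 5, 16465586 to 16466564) had the lowest WT rank of all 54 genes and went the other way, with fold enrichments of 13.3 in 3A, 17.5 in 7A and 8.85 in WT at percentiles of 62.05 in 3A, 76.2 in 7A and 38.8 in WT.

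The promoter windows of NSA2, RSL24D1 and ZNF622 are shown in the same notation because these genes had large rank differences in 7A and their WT summits fall inside the window.
NSA2 (chr5:74766999-74767298, plus strand): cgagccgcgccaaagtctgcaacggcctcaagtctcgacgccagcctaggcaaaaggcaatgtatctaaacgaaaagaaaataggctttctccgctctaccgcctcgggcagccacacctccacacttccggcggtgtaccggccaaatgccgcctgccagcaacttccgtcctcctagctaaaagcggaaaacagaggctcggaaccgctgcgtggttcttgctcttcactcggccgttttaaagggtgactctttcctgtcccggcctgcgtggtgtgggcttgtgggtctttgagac
RSL24D1 (chr15:55196892-55197191, minus strand): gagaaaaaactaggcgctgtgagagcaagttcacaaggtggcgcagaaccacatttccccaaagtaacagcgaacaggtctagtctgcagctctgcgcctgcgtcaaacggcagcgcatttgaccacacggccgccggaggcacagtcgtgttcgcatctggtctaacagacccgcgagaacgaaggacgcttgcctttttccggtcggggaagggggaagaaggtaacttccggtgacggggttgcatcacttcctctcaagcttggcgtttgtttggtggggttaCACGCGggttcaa
ZNF622 (chr5:16465751-16466050, minus strand): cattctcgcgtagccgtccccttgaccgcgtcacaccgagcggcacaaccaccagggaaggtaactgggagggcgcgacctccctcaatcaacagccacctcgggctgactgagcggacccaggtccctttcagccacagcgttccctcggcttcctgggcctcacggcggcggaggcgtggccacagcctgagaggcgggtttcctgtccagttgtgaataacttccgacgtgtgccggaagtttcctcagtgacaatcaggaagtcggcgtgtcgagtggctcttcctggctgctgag
None of the 3 holds CACGTG, and RSL24D1 holds CACGCG or its complement once. The WT summit was 114 bp before the start of NSA2, 91 bp before that of RSL24D1 and 64 bp before that of ZNF622.

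**Figure D4:**
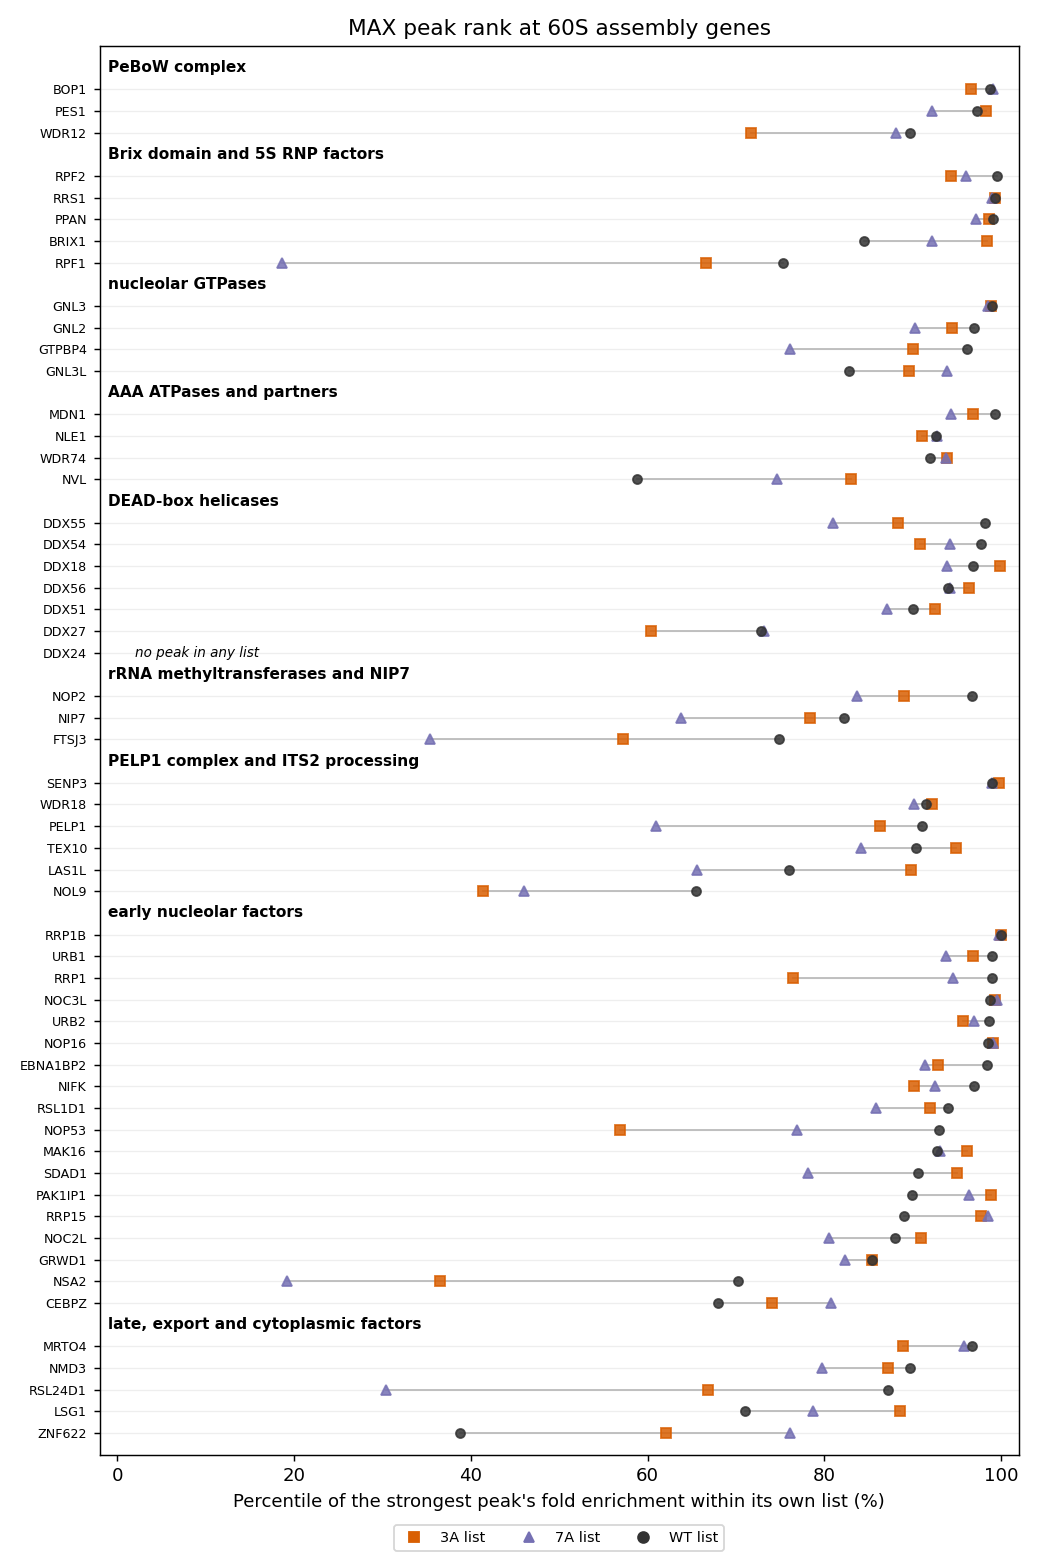
Percentile of the strongest MAX peak within the 3A (squares), 7A (triangles) and WT (circles) lists (x axis, %) for each of the 55 large-subunit assembly genes (y axis), ordered by role and by WT percentile. At least 90 are 32 of 54 genes in 3A, 29 in 7A and 34 in WT (20.0%, 18.1% and 23.1% of all genes with a peak). RPF1, NSA2, FTSJ3 and RSL24D1 are under 40 in 7A, and DDX24 has no peak.

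Set against WT, 41 of the 54 genes were within 10 percentile points in 3A (47.8% of all genes with both peaks) and 36 in 7A (46.0%). The median difference in percentile, mutant minus WT, was -1.01 points for 3A and -3.01 points for 7A over the 54 genes, and -2.65 and -4.70 points over all protein-coding genes with both peaks. With lists of equal length (the 3A and WT lists cut to the 25159 strongest peaks by −log10 q), these medians were 0.16 for 3A and -1.51 for 7A over the 54 genes, and 0.77 and 0.68 over all. All but the 7A value of the 54 genes turned sign, so no shift of the set as a whole is read from them. These 2 comparisons share the WT list. In 3A, 8 genes were at least 10 points lower than in WT (33.0% of all genes with both peaks) and 5 at least 10 points higher (19.2%). In 7A, 14 were at least 10 points lower (37.8%) and 4 at least 10 points higher (16.2%). With lists of equal length, 8 genes were lower and 9 higher in 3A (25.1% and 30.7% of all), and 10 lower and 9 higher in 7A (25.1% and 29.9%). With peaks ranked by −log10 q, 9 were lower and 2 higher in 3A (30.8% and 9.17%), and 13 lower and 1 higher in 7A (37.9% and 8.26%). A gene near the top of the WT list has little room to rank higher.

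The genes lowest in 3A relative to WT were NOP53 (-36.1 points), NSA2 (-33.7), NOL9 (-24.1) and RRP1 (-22.5), and the highest were NVL (24.2), ZNF622 (23.3), LSG1 (17.5) and BRIX1 (13.8). In 7A they were RSL24D1 (-56.8), RPF1 (-56.6), NSA2 (-51.0) and FTSJ3 (-39.5) at the low end, and ZNF622 (37.4), NVL (15.8), CEBPZ (12.8) and GNL3L (11.1) at the high end. Ranked by −log10 q, most of these differences were smaller. In 3A they were -19.7 for NOP53, -16.4 for NSA2, -26.2 for NOL9 and -10.2 for RRP1, and 10.5 for NVL, 11.7 for ZNF622, 7.26 for LSG1 and 4.72 for BRIX1. In 7A they were -38.6 for RSL24D1, -38.7 for RPF1, -34.6 for NSA2 and -25.2 for FTSJ3, and 14.01 for ZNF622, 5.28 for NVL, 0.379 for CEBPZ and -0.70 for GNL3L, whose sign turned. Of the 34 genes in the top 10% of the WT list, 28 were also in the top 10% of 3A (56.9% of all genes in the WT top 10% with both peaks) and 25 in that of 7A (52.6%). These 34 had a median WT percentile of 97.2, against 95.3 for all genes in the WT top 10%.

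Between the mutants, in 7A 11 genes were at least 10 points lower than in 3A (29.3% of all genes with both peaks) and 5 at least 10 points higher (21.8%). The lower ones were led by RPF1 (-48.0 points), RSL24D1 (-36.4), PELP1 (-25.3) and LAS1L (-24.2). NOC2L was also among them (-10.5), but its strongest peaks were different sites, with summits at 959203 in 3A and 941723 in 7A. The higher ones were NOP53, RRP1, WDR12, ZNF622 and DDX27. With lists of equal length 10 genes were lower (25.7%) and 5 higher (26.0%). Ranked by −log10 q, 8 were lower (19.2%) and 0 higher (11.6%), and the 5 genes named as higher differed by 1.27 to 6.39 points. RSL24D1 was then the lowest (-27.2), with LAS1L at -20.4, RPF1 at -17.00 and PELP1 at -14.5.

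**Figure D5:**
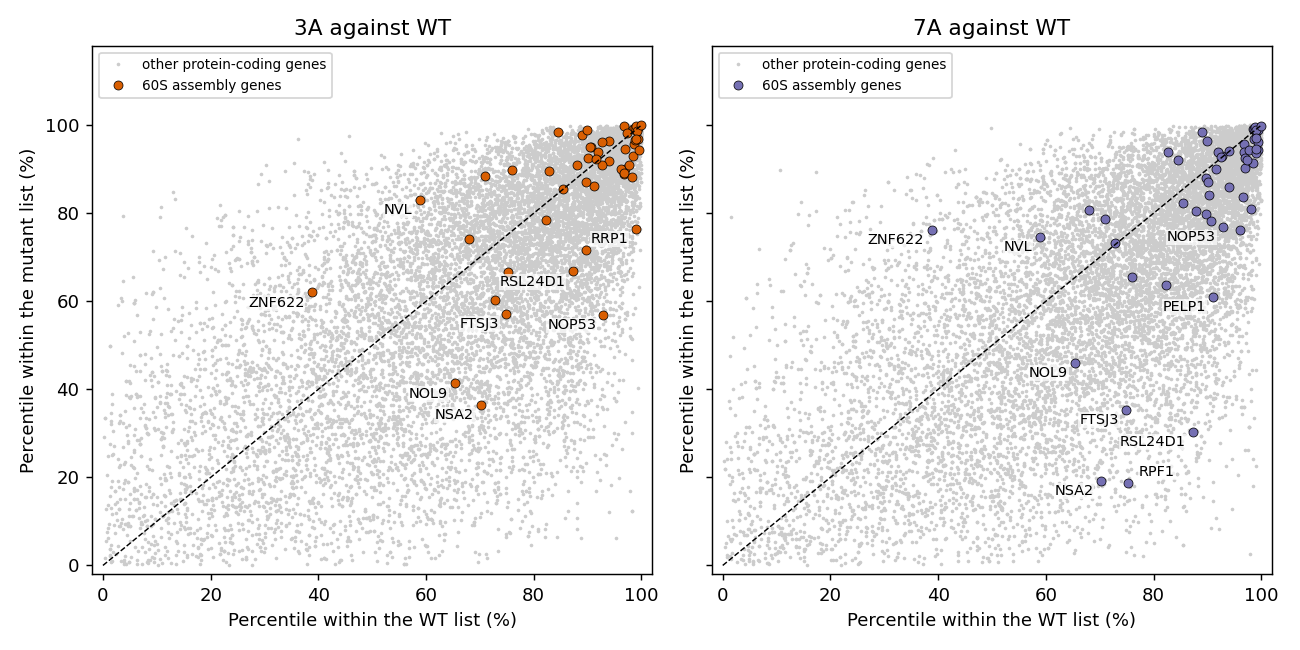
Percentile within the mutant list (y axis, %) against percentile within the WT list (x axis, %) for 3A (left) and 7A (right). Coloured points are the 54 large-subunit assembly genes with a peak, grey points the other protein-coding genes with both peaks, and the dashed line marks equal percentiles; RPF1, NSA2 and RSL24D1 lie far under it in 7A and ZNF622 above it.

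The strongest WT sites were, with 1 exception, also sites in both mutant lists. The strongest WT peak was overlapped by a 3A peak at 53 of 54 genes and by a 7A peak at 54 of 54. At these sites the nearest mutant summit was a median of 7 bp from the WT summit in 3A and 9 bp in 7A, and within 50 bp at 49 genes in 3A and 48 in 7A. The exception was NOC2L, whose strongest WT peak (chromosome 1, 960486 to 961821, fold enrichment 27.4) had no counterpart in 3A. Its summit lay 2058 bp upstream of the RefSeq start and 730 bp from an outer end of KLHL17, the neighbouring gene. NOC2L had 2 peaks in 3A, 2 in 7A and 3 in WT. The peak at its start, at 959197 in WT, was listed in 3A (27.3) and WT (20.8) and not in 7A. Of all 70 WT peaks of these genes, 3A peaks missed 5 and 7A peaks also 5. The 4 found in neither mutant list were weaker peaks of NOP53 (fold enrichment 25.5), WDR74 (15.6), BOP1 (7.63) and PPAN (6.64). The same counts over all genes or all WT peaks are not given here, so these counts show no trait particular to this set.

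Some peaks cannot be credited to a single gene. An outer end of another protein-coding gene lay no more than 1000 bp from the strongest summit for 22 of the 54 genes in 3A, 22 in 7A and 23 in WT. In WT these included RRP1B (42 bp from HSF2BP), NSA2 (18 bp from GFM2), CEBPZ (78 bp from NDUFAF7), URB2 (101 bp from TAF5L), BRIX1 (107 bp from RAD1), GNL3 (128 bp from PBRM1) and BOP1 (372 bp from HSF1). The strongest SENP3 summit was 286 bp from EIF4A1 in WT, and in 3A the strongest BOP1 summit was 111 bp from SCX. DDX51 shared its peak with NOC4L, a small-subunit assembly gene 113 bp away. PPAN also lies within the readthrough gene PPAN-P2RY11. The counts of genes with such a neighbour are not given for all protein-coding genes, so they show no trait particular to this set.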

How the data were processed

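MAX ChIP-Rx was described for 18 libraries, and 3 narrowPeak lists without headers, 1 per MYC form, were analysed. The antibody field of the labels names MAX, while their protocol text describes an anti-FLAG antibody. Per the submitters' processing notes, the tools were MACS2, Picard, SAMtools, Bowtie2 and cutadapt, and 3 builds (mm10, hg38, hg19) appear with no role stated. The sources used here do not say whether libraries were pooled or what served as control. The deposited fold enrichment is the authors' linear ratio at the summit, the deposited −log10 p and −log10 q are the authors' values per peak, and the deposited summit position is an offset in bp. Columns of other samples numbered 0.

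Positions were read as hg38, since summits fell on gene starts of that build, and are printed counting from 1. Genes and promoter windows came from RefSeq (GRCh38.p14), and 55 of 55 genes matched. Per gene and list, the peak with the highest fold enrichment was kept. Percentiles were taken over all peaks of a list. The lists do not give depth, so precision per peak is unknown. Assignment and ranking were tested on simulated data. No test was run, since each MYC form has 1 list.

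The genes, role groups and comparison sets were chosen with earlier results of these data known. Values are given for the 12 genes with the highest WT fold enrichment, the 4 with the lowest WT percentile, the 4 largest differences each way per mutant, genes lacking a peak and genes whose WT site had no mutant partner; other genes were added to complete the role groups, and those lying below or above a given value were named after their values were seen. Alternatives were other windows (1000 and 10000 bp), a −log10 q of at least 10, lists of equal length, peak overlap in place of summits, ranking by −log10 p or q, the peak nearest to a gene end, and stricter site overlap. Computation was in Python 3.11.15 (SciPy 1.17.1, NumPy 2.4.6, pandas 2.3.3), with figures from matplotlib 3.10.9.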

Additional observations from a re-analysis of the deposited data

How the results depend on the processing

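The count of genes with a peak stayed between 52 and 54 in 3A, 51 and 54 in 7A and 53 and 54 in WT under 6 alternatives of window, threshold, list length and assignment, and the count with a peak in all 3 lists between 51 and 54. The median percentile ranged from 90.5 to 93.1 in 3A, from 86.5 to 91.6 in 7A and from 89.9 to 94.9 in WT over 9 alternatives; the value of 89.9, with lists of equal length, lay outside the interval of the WT median and follows from the weakest peaks being left out of the longest list. The number of strongest WT sites found in the mutant lists was between 50 and 53 for 3A and between 48 and 54 for 7A. Alternatives for rank differences were chosen after seeing the data. The count of genes at least 10 points higher than in WT was the least stable: in 3A it was 5, against 9 with lists of equal length and 2 with ranking by −log10 q or −log10 p, and in 7A it was 4, against 9 and 1. In 7A against 3A, 5 genes were at least 10 points higher, against 0 with ranking by −log10 q or −log10 p. With lists of equal length the median difference from WT turned to 0.157 points in 3A for the set, and to 0.767 points in 3A and 0.684 points in 7A for all protein-coding genes. Ranked by −log10 q or −log10 p, the difference of GNL3L in 7A turned to -0.697 points (the cause was not tested), and that of CEBPZ shrank to 0.379. For the other genes with the largest differences in a mutant list the sign was kept under these 3 alternatives, but the size was not; NSA2 in 7A, for instance, was at -39.8 with lists of equal length and -34.6 with −log10 q, and ZNF622 at 56.7 and 14.01. No paired analysis was possible because the lists do not separate replicates, and for the same reason no replicate could be left out. Depth was not given, so a peak missing from a list may lie under that list's threshold.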

Other observations

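Several genes of the set carried further peaks beside their strongest one. Of the 54 genes, 9 had more than 1 peak in 3A, 9 in 7A and 10 in WT, and all peaks together numbered 69 in 3A, 68 in 7A and 70 in WT, of which 7, 6 and 5 lay inside a gene and over 2500 bp from its ends. These counts are not given for all genes with a peak, so they show no trait particular to this set. BOP1, of the PeBoW complex, had peaks inside the gene in every list: the one 4297 bp from an outer end in 3A had a fold enrichment of 39.8, the one at 4302 bp in 7A had 30.8 and the one at 4294 bp in WT had 21.0. Their percentiles were 96.5 in 3A, 93.0 in 7A and 80.9 in WT. In 3A this summit was 111 bp from an outer end of SCX, so the peak cannot be credited to BOP1 alone. GNL3L had an internal peak 6431 bp from an outer end in 3A (25.6), 6416 bp in 7A (11.4) and 6104 bp in WT (13.6). The percentiles of this peak were 89.6 in 3A, 51.9 in 7A and 63.0 in WT. PES1 had a weaker peak at an outer end of the gene, with a fold enrichment of 11.2 in 3A, 8.16 in 7A and 8.55 in WT.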
